A study of Caenorhabditis elegans with 2 samples.

Results

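The neuropeptide and insulin genes of Caenorhabditis elegans were taken here as all protein-coding genes whose symbol begins with flp-, nlp- or ins- in the Ensembl annotation of WBcel235. There were 140 such genes among 19985 protein-coding genes, of which 31 were flp, 71 nlp and 38 ins genes. Membership followed from the name alone, although these families were taken up with earlier results of the same data known. The measurements were chromatin immunoprecipitation followed by sequencing (ChIP-seq) of F13H6.1, the zinc finger protein encoded by bcl-11, in whole hermaphrodite late embryos collected 5 hours after synchronization by egg bleaching. The single group held 2 biological replicates of strain OP471, which carries unc-119(tm4063) III and the transgene wgIs471, with a C-terminal GFP-FLAG tag on F13H6.1, and an anti-GFP antibody was used for the pull-down. No untagged or otherwise different group was part of the comparison, and both replicates came from 1 transgenic line in an unc-119 mutant background. In whole embryos, strong binding in few cells and weak binding in many cells cannot be told apart, and no expression was measured, so the presence of neurons was not checked.

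Peptides are the slow messengers of the worm nervous system. The flp genes encode FMRFamide-like peptides, the nlp genes encode a mixed set of other neuropeptide-like precursors, some of which serve as antimicrobial peptides of the skin, and the ins genes encode insulin-like peptides. Precursors are cut by proprotein convertases, packed into dense-core vesicles and released to act on G protein-coupled receptors, while insulin-like peptides act on the receptor tyrosine kinase DAF-2, which restrains the FOXO factor DAF-16 and controls dauer formation, growth and lifespan. BCL11 proteins are zinc finger transcription factors with known roles in neurons and blood cells of mammals.

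Binding was read from the authors' lists of enriched regions on ce11 (WBcel235). The permissive lists held 21824 regions for the pooled reads, 19517 for replicate 1 and 21972 for replicate 2, and the 1065 regions that passed the authors' reproducibility threshold, called sites here, were the 1065 of highest signal in the pooled list. A gene was counted as having a region when the summit lay between 1000 bp upstream and 500 bp downstream of any of its transcript starts, the promoter window. The signal is the authors' peak caller's own value and was used only for order within a list, so rank 1 is the highest signal and a rank position is the rank as a percent of the list. The lists do not give the sequencing depth of either library.

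The stretches below are the reference sequence at the highest pooled regions of 4 members. They are those of highest signal, with nlp-4 and ins-30 left out, among the leading 5 genes of each family under this rule. The rule asks for replicate summits within 100 bp of each other around a pooled summit outside coding exons and UTRs. The nlp-4 region (pooled rank 2266) also meets it. The ins-30 region (pooled rank 5411) is intergenic, with a pair of replicate summits 34 bp apart in its window. Both rank above the nlp-67 region (6522) and are described by their position only. Each printed stretch has 121 bases of the plus strand of the RefSeq genome for WBcel235, written 5′ to 3′. They are chrX:1344983-1345103 for ins-39, chrIII:8650348-8650468 for flp-23, chrX:4592631-4592751 for flp-12 and chrX:16184084-16184204 for nlp-67. Capitals mark the span from the first to the last of the 3 summits (pooled, replicate 1 and replicate 2), except at flp-23, where they mark the tRNA gene F22B7.t5 that holds all 3 summits.
ins-39: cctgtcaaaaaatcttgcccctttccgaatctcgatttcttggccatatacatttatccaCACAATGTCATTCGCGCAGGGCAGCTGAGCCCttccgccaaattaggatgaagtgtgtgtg
flp-23: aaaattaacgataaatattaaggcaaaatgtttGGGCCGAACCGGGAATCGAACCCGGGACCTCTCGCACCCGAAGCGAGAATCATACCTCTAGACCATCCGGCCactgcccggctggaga
flp-12: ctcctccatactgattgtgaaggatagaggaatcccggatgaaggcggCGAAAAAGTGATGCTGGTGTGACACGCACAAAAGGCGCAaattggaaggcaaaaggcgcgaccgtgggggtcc
nlp-67: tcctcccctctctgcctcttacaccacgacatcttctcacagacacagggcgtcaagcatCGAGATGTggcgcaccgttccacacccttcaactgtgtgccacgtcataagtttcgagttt
The summits at flp-12, nlp-67 and ins-39 are intergenic, and none of the 4 stretches contains TGACCA, the word bound by mammalian BCL11A, on either strand. Their GC content was 47.1% at ins-39, 52.1% at flp-23, 54.5% at flp-12 and 53.7% at nlp-67.

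No peptide gene had a site in its promoter window. The count was 0 of 140 members (95% Wilson interval 0 to 2.67%), against 788 of 19985 protein-coding genes (3.94%), a share at which 140 genes would hold 5.52. The count was 0 in each family, with upper bounds of 11.0% for the 31 flp genes, 5.13% for the 71 nlp genes and 9.18% for the 38 ins genes. The bounds of all 3 families lie above the share of all protein-coding genes, so a single family is too small to be set apart from it. The Wilson intervals cover counting error only, and genes are not replicates, so no test was made over them.

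Weaker regions were present at part of the family. In the pooled permissive list 41 of 140 members (29.3%, 22.4 to 37.3%) had a region, against 36.5% of all protein-coding genes, a share at which 140 genes would hold 51.1. Replicate 1 gave 43 members (30.7%), against 33.9% of all protein-coding genes. Replicate 2 gave 37 members (26.4%), against 36.3%. Members with a region in both replicates numbered 21 (15.0%, 10.0 to 21.8%), against 22.3% of all protein-coding genes. Summits of both replicates within 100 bp of each other were found at 9 members (6.43%, 3.42 to 11.8%), against 14.7%. The members' share was thus below that of all protein-coding genes in the pooled list and in both replicates, by the smallest margin in replicate 1.

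The members' regions also stood low in their lists. Among genes with a pooled region, the highest one had a median rank position of 48.2% for the 41 members (quartiles 33.9 and 67.8%) and 36.8% for all 7293 protein-coding genes with one (14.0 and 66.3%). In replicate 1 the medians were 52.0% for members and 37.3% for all protein-coding genes, and in replicate 2 they were 58.4% and 37.7%. Going down the pooled list by rank, its highest 2000 regions reached 1 member (0.714%) and 6.57% of all protein-coding genes. The highest 5000 reached 6 members (4.29%), against 13.0%, and the highest 10000 reached 19 (13.6%), against 21.3%. The same step of 10000 regions reached 21 members (15.0%) in replicate 1, against 21.1%, and 12 (8.57%) in replicate 2, against 20.8%. These ranks and counts were not compared with genes of the same window layout, which differed between members and other genes, as described below.

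**Figure D1:**
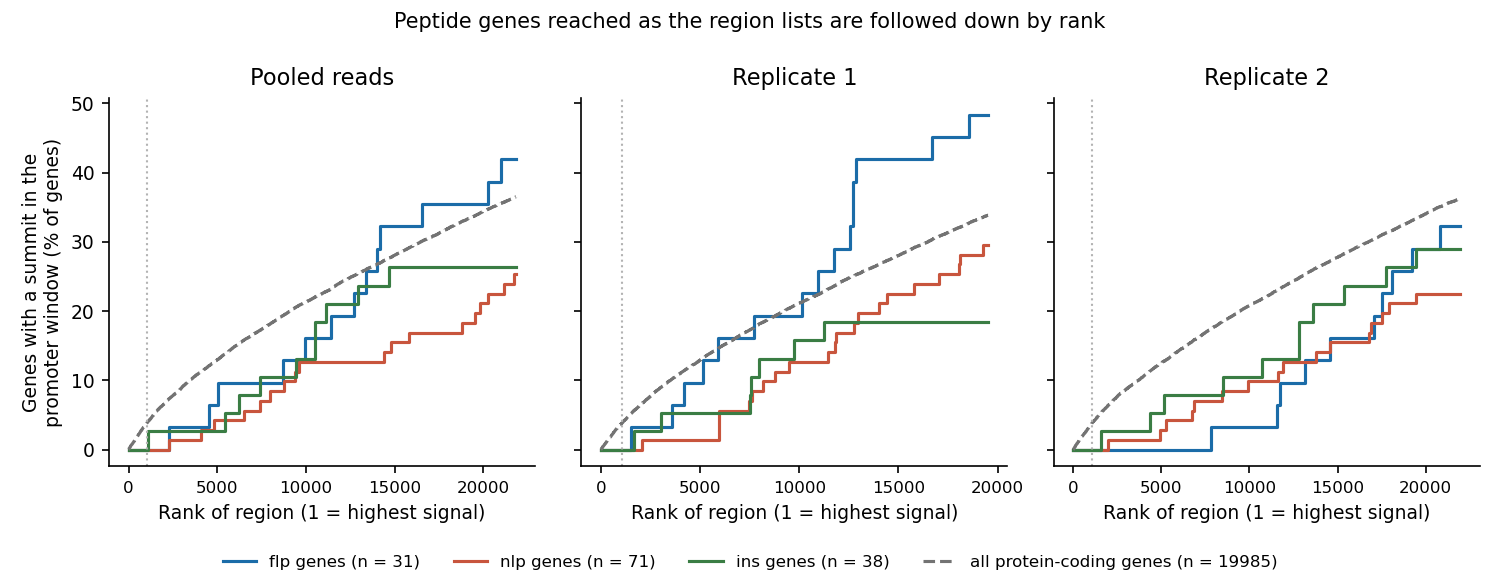
Share of flp (n = 31), nlp (n = 71) and ins (n = 38) genes, and of all 19985 protein-coding genes (dashed), with a summit in the promoter window (y axis, % of genes) as each list is followed down by rank (x axis, 1 = highest signal), for the pooled reads and each replicate. The dotted line stands at rank 1065, where all 3 families are at 0 in all 3 lists; the flp curve ends above the dashed curve in the pooled list and replicate 1 and below it in replicate 2.

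Of the 3 families, the flp genes had a pooled region most often. The pooled list gave 13 of 31 flp genes (41.9%, 26.4 to 59.2%), 18 of 71 nlp genes (25.4%, 16.7 to 36.6%) and 10 of 38 ins genes (26.3%, 15.0 to 42.0%). Replicate 1 gave 15 flp genes (48.4%), 21 nlp genes (29.6%) and 7 ins genes (18.4%). Replicate 2 gave 10 flp genes (32.3%), 16 nlp genes (22.5%) and 11 ins genes (28.9%). The flp share was the highest in all 3 lists, while the nlp and ins shares changed places between the replicates. Against the share of all protein-coding genes, the flp genes were above it in the pooled list and in replicate 1 and below it in replicate 2. The intervals of the 3 families overlap in each list, and the difference between families was not tested.

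Among high regions the place of the flp genes differed between the replicates. The highest 10000 pooled regions reached 5 flp (16.1%), 9 nlp (12.7%) and 5 ins genes (13.2%). In replicate 1 they reached 6 flp (19.4%), 9 nlp (12.7%) and 6 ins genes (15.8%). In replicate 2 they reached only 1 flp gene, flp-23 (3.23%), with 7 nlp (9.86%) and 4 ins genes (10.5%), and the highest 5000 reached no flp gene. The median rank position of the flp genes with a region was 58.3% in the pooled list, 56.1% in replicate 1 and 72.0% in replicate 2. For nlp genes it was 55.0, 60.6 and 53.4%, and for ins genes 45.8, 38.7 and 58.4%, in the same order of lists. With only the pooled regions of above-median signal, 5 flp (16.1%), 9 nlp (12.7%) and 7 ins genes (18.4%) remained counted, against 22.5% of all protein-coding genes, and the flp share was then no longer the highest.

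Among the insulin-like genes, ins-39 came closest to the reproducibility threshold of all 140 members. Its pooled region (chrX:1344815-1345270) had rank 1119 and a signal of 80.35, just under the lowest signal of a site, 82.13. It ranked 1667 in replicate 1 and 1564 in replicate 2, with summits 30 bp apart, 622 bp upstream of the start in intergenic sequence. It was the only member within the highest 5000 regions of both replicates. The highest 5000 of replicate 1 reached 6 members (4.29%), against 12.9% of all protein-coding genes. Those of replicate 2 reached 4 (2.86%), against 12.5%. The share of all protein-coding genes reached in both was not computed. The next ins genes were weaker and less even between replicates. The region upstream of ins-30 (chrI:14036168-14036623) had rank 5411 in the pooled list. The highest region in the ins-30 window had rank 9742 in replicate 1, with its summit 62 bp downstream of the start, and rank 5171 in replicate 2, with its summit at -198 bp relative to the start, so these summits were 260 bp apart. The intronic region of ins-33 had pooled rank 6210 and rank 4376 in replicate 2, and replicate 1 had none in its window. The opposite held for ins-27, with pooled rank 7401 at a coding exon, rank 3047 in replicate 1 and no region in replicate 2. For ins-29, 97 bp upstream of the start, the pooled rank was 9459, replicate 1 had none and replicate 2 ranked it 10687. The gene ins-1, whose product resembles vertebrate insulin and antagonizes DAF-2, had a region of pooled rank 14701 and replicate 1 rank 7547, with none in replicate 2. A single pooled summit, of rank 10527, lay in the windows of both ins-19 and ins-31, so the 41 members shared 40 distinct summits.

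**Figure D2:**
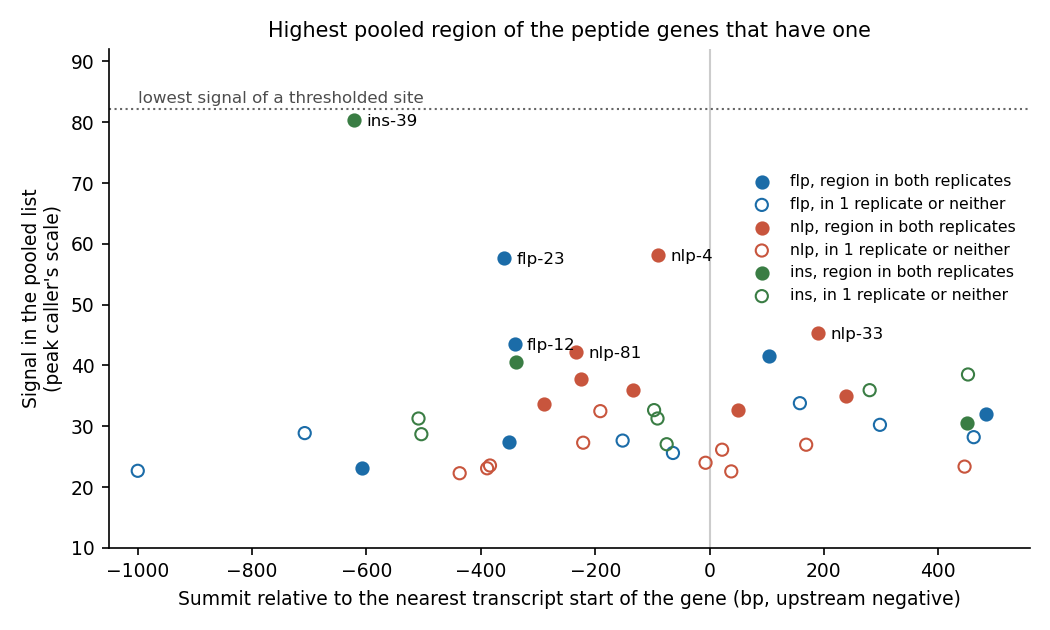
Highest pooled region of each of the 41 members with one, by the position of its summit relative to the nearest transcript start of the gene (x axis, bp, upstream negative) and its signal on the peak caller's scale (y axis). Filled points had a region in both replicates and open points in 1 or neither; the dotted line is the lowest signal of a site (82.13), under which ins-39 lies at 80.35.

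The highest region of a flp gene was that of flp-23, and it lay in a tRNA gene. The region (chrIII:8650180-8650635) had pooled rank 2309, rank 1538 in replicate 1 and rank 7806 in replicate 2. All 3 summits fell inside the 72 bp tRNA gene F22B7.t5 on the minus strand, at chrIII:8650381-8650452, with the pooled summit 359 bp upstream of flp-23. Whether it belongs to flp-23 or to the tRNA gene was not tested. The region 341 bp upstream of flp-12 (chrX:4592463-4592918) had pooled rank 4524, rank 5926 in replicate 1 and only 17509 in replicate 2, although the replicate summits were 38 bp apart. At flp-27 the region lay over a coding exon (chrII:5680879-5681334), with pooled rank 5053, replicate 1 rank 4169 and replicate 2 rank 11572. The coding exon region of flp-4 (chrII:10054547-10055002) had pooled rank 8695 and replicate 1 rank 7735, and replicate 2 had none. The intronic region of flp-32 had pooled rank 9937, replicate 1 rank 12879 and replicate 2 rank 20808. All 5 of these regions ranked higher in replicate 1 than in replicate 2, or were listed in replicate 1 alone. Lower in the pooled list stood flp-17, a peptide of the carbon dioxide sensing BAG neurons, with rank 12726 and a region in replicate 2 alone (11708), and flp-1, a modulator of locomotion, with rank 13361 and a region in replicate 1 alone (10948).

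The highest region of an nlp gene was that of nlp-4, which sits in a crowded stretch of chromosome I. Its region (chrI:10517917-10518372) had pooled rank 2266, rank 7636 in replicate 1 and rank 1976 in replicate 2, with the pooled summit 90 bp upstream of the start. The summit also lay in the windows of exos-3, which encodes an RNA exosome subunit, and of the snoRNA gene F59C6.15. The coding exon region of nlp-33 (chrV:11147308-11147763), a relative of the antimicrobial peptide genes, was even between replicates, with pooled rank 4088, rank 5949 in replicate 1 and rank 6871 in replicate 2. The region 233 bp upstream of nlp-81 (chrIV:3176122-3176577) had pooled rank 4845. The highest regions in the nlp-81 window ranked 2071 in replicate 1 and 16777 in replicate 2, with summits 363 bp apart. At nlp-67 (chrX:16183916-16184371) the summits were only 7 bp apart, with pooled rank 6522, replicate 1 rank 5971 and replicate 2 rank 17900. The region of nlp-48, of pooled rank 7420, lay in an intron of rgr-1, and ranked 12784 in replicate 1 and 9907 in replicate 2. Of nlp genes with known roles, nlp-12, which encodes cholecystokinin-like peptides of a stretch-sensing neuron, had pooled rank 9596 with a region in replicate 2 alone (5253). The gut-released signal of the defecation cycle, nlp-40, had pooled rank 14404 with a region in replicate 1 alone (9490). These members with known roles, and ins-1, flp-17 and flp-1 above, were named after their values were seen.

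**Figure D3:**
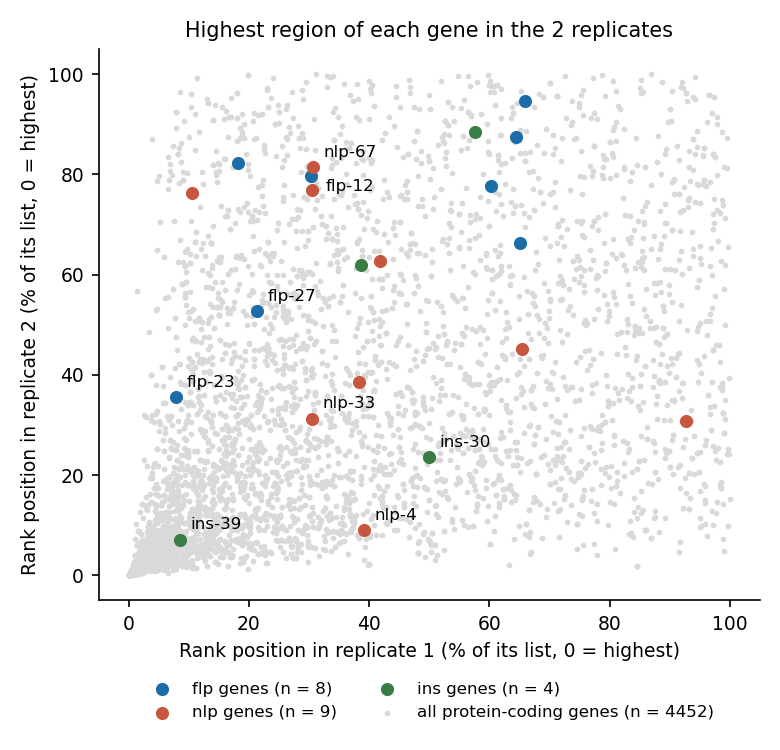
Rank position of the highest region in replicate 1 (x axis, % of its list, 0 = highest) against that in replicate 2 (y axis, same unit) for genes with a region in both: 8 flp, 9 nlp and 4 ins genes over all 4452 protein-coding genes (grey). Of the members only ins-39 lies near the corner of high rank in both lists, while flp-12 and nlp-67 stand high in replicate 1 and low in replicate 2.

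Agreement between replicates was partial. Of the 41 members with a pooled region, 17 had a region in both replicates, 11 in replicate 1 alone, 9 in replicate 2 alone and 4 in neither, namely nlp-29, nlp-52, nlp-69 and flp-15. The 17 were 41.5% of the members with a pooled region, against 58.1% of all protein-coding genes with one. Another 22 members had a replicate region but no pooled one, and 4 of these, flp-7, flp-28, ins-5 and nlp-62, had 1 in each replicate, with summits 316 to 731 bp apart. No region in any of the 3 lists was found in the windows of 77 members (55.0%), against 50.1% of all protein-coding genes. These were 13 flp (41.9%), 40 nlp (56.3%) and 24 ins genes (63.2%). The 9 members whose replicate summits lay within 100 bp of each other were flp-12, flp-23, flp-27, flp-32, nlp-4, nlp-33, nlp-67, ins-30 and ins-39, and all 9 also had a pooled region. At ins-30 the close pair was not that of the highest regions.

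The pooled summits lay at much the same kinds of place as those of other genes. Of the 41, 21 (51.2%) were intergenic, 8 (19.5%) in coding exons, 7 (17.1%) in introns, 4 (9.76%) in UTRs and 1 (2.44%) in a noncoding gene. Over all protein-coding genes with a region the shares were 49.4, 17.6, 19.6, 9.05 and 4.36%. Summits upstream of the nearest start made up 26 of 41 (63.4%), against 75.5% for all protein-coding genes. The median distance of the summit from the start was 280 bp for members and 290 bp for all protein-coding genes. Summits of 5 members also lay in the window of another protein-coding gene, those of nlp-4, nlp-33, ins-29, ins-19 and ins-31. The nearest protein-coding start was the member's own for 40 of 41. This count and the one before it were not made over all protein-coding genes, so they give no comparison.

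The layout of the windows differed between the peptide genes and other genes. A protein-coding start of another gene was absent from the window of 126 members (90.0%), and of all 31 flp genes, against 76.7% of all protein-coding genes. A single transcript start was annotated for 111 members (79.3%), against 72.6%. Among genes with 1 start and no other coding start in the window, a choice made after seeing the data, 25 of 99 members (25.3%) had a pooled region, against 3024 of 11108 other protein-coding genes (27.2%). In replicate 1 the shares were 27.3% for members and 25.7% for other genes, and in replicate 2 they were 26.3% and 27.2%. Within these genes flp led again, with 8 of 20 flp genes (40.0%), 11 of 50 nlp genes (22.0%) and 6 of 29 ins genes (20.7%) in the pooled list. The flp shares in these genes were 45.0% in replicate 1 and 35.0% in replicate 2. Sites were at 0 of 99 members, against 223 of 11108 other genes (2.01%), a lower share than over all other protein-coding genes (3.97%). No interval was computed for these 99 members, and the difference was not tested. Among genes with several starts, 10 of 29 members (34.5%) had a pooled region, against 52.6% of other genes, whose windows were longer, with a median of 1691 bp for members and 2161 bp for the others.

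The families were spread unevenly over the chromosomes. Of the flp genes 13 of 31 (41.9%) were on X, against 13.7% of all protein-coding genes, and of the ins genes 15 of 38 (39.5%) were on II and 10 (26.3%) on I. On X, 8 of 34 members (23.5%) had a pooled region, against 38.9% of all protein-coding genes there. Of the flp genes on X, 3 of 13 (23.1%) had a pooled region. On the autosomes it was 0 of 2 flp genes on I, 2 of 3 on II, 3 of 5 on III, 3 of 5 on IV and 2 of 3 on V. The shares of all protein-coding genes there were 46.1, 36.3, 46.2, 33.8 and 26.3%. These flp counts are small, and a difference between X and the autosomes was not tested. On chromosome I, 5 of 10 ins genes had a pooled region, against 46.1% of all protein-coding genes on I, and on II it was 2 of 15, against 36.3%.

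Many peptide genes stand in tandem groups, here taken as members no more than 20 kb apart. In the group of 7 ins genes on chrI:14012369-14037777, ins-27, ins-29 and ins-30 had a pooled region. In the group of 6 on chrII:5988524-6011321, which includes ins-4 and ins-6, known DAF-2 agonists, none had a pooled region. In the replicate lists, ins-5 had a region in each replicate and ins-6 had one in replicate 2 alone (rank 15375). The nearest site to this group lay 37.0 to 59.3 kb away. The group of antimicrobial peptide genes on chrV:3978825-3989770, nlp-27 to nlp-31 with nlp-34, had pooled regions at nlp-27 (rank 7964) and nlp-29 (rank 19511), and nlp-29 is known to be induced in the skin by fungal infection. The group's nearest site lay 206 to 216 kb away. No pooled region was found in the groups ins-11 to ins-13, ins-21 to ins-23 or flp-2, flp-3 and flp-28. Of these genes, ins-23 had a region in replicate 2 alone (rank 8509) and flp-28 had one in each replicate. Groups of other protein-coding genes were not counted, so these group counts give no comparison.

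The distance to the nearest site was close to that of other genes. The median from a transcript start to a site summit was 35.0 kb for members (upper quartile 65.7 kb, range 0.79 to 452 kb) and 38.8 kb for all protein-coding genes (upper quartile 83.7 kb). By family it was 37.5 kb for flp, 40.9 kb for nlp and 31.1 kb for ins genes. With the 1065 highest regions of replicate 1 in place of the sites, the medians were 38.0, 40.9 and 33.7 kb, and with those of replicate 2 they were 33.0, 33.1 and 28.9 kb. The ins genes had the shortest median and the nlp genes the longest in all 3, though in replicate 2 flp and nlp differed by 0.1 kb. At short range, 1 of 140 members (0.714%) lay within 1 kb of a site, against 4.16% of all protein-coding genes, and 9 (6.43%) lay within 5 kb, against 10.8%. These 9 were 6 ins genes (15.8% of the family), 3 nlp genes (4.23%) and no flp gene.

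**Figure D4:**
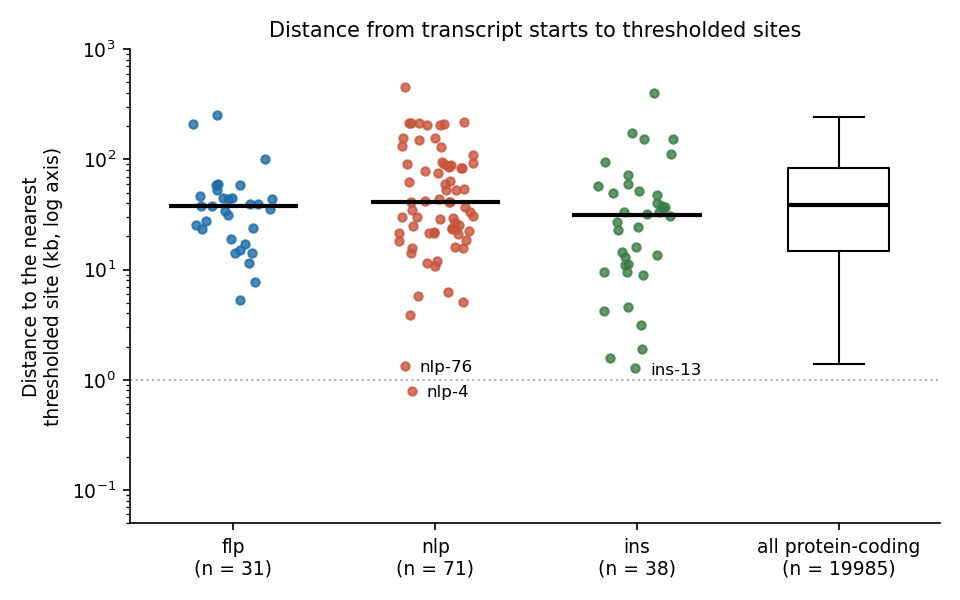
Distance from each member's transcript start to the nearest site summit (y axis, kb, log scale) by family; each point is 1 gene and the black line the family median (37.5, 40.9 and 31.1 kb). The box gives the median and quartiles of all 19985 protein-coding genes with whiskers from the 5th to the 95th percentile, and the dotted line marks 1 kb, under which only nlp-4 lies.

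The sites nearest to peptide genes lay mostly by the starts of other genes, snoRNA, snRNA and tRNA genes among them. The site 790 bp downstream of the nlp-4 start (chrI:10517156-10517377, rank 49) was 115 bp from the snoRNA gene F59C6.15. The site 1267 bp downstream of the ins-13 start (chrII:5543369-5543824, rank 593) was 1 bp from the start of sls-2.2, an SL2 spliced leader RNA gene. The site 1336 bp upstream of nlp-76 (chrX:12665173-12665319, rank 101) lay in an intron of nhr-17, 11 bp from the start of a tRNA gene. Those 1572 bp downstream of the ins-37 start and 1908 bp downstream of the ins-17 start lay 12 and 7 bp from starts of noncoding RNA genes, and the site near ins-17 was also in the windows of rps-1, a ribosomal protein gene, and ifet-1. A site 94 bp from the start of exos-8, another exosome subunit gene, was the nearest to ins-15 (3151 bp) and ins-14 (4217 bp). The site nearest to ins-10, at 4580 bp, was 151 bp from the start of vps-39, and for nlp-46, at 3879 bp, the nearest start was that of T28H10.2 at 2785 bp. For flp genes the nearest sites were 5.34 kb from flp-14, 7.76 kb from flp-23 and 11.4 kb from flp-19.

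The rest of the peptide signalling pathway was read from 5 lists of genes that act beside or after the peptides, 185 genes in all. The lists, too, were drawn up with earlier results of these data known, so their shares are a description. Genes for peptide processing and release had a pooled region in 16 of 22 cases (72.7%, 51.9 to 86.9%), and genes of the insulin receptor pathway in 12 of 17 (70.6%, 46.9 to 86.7%), against 36.5% of all protein-coding genes. Peptide receptors had one in 16 of 107 (15.0%, 9.42 to 22.9%), genes of peptidase families in 7 of 31 (22.6%, 11.4 to 39.8%) and other peptide genes in 1 of 8 (12.5%, 2.24 to 47.1%). All 5 lists stood on the same side of all protein-coding genes in each replicate as in the pooled list. Replicate 1 gave 11 of 22 processing and release genes, 9 of 17 insulin receptor pathway genes (52.9%) and 15 of 107 receptors (14.0%), against 33.9%. Replicate 2 gave 15 (68.2%), 12 (70.6%) and 24 (22.4%), against 36.3%. In replicate 1 the intervals of processing and release (30.7 to 69.3%) and the insulin receptor pathway (31.0 to 73.8%) included the 33.9%. A region in both replicates was found at 7 of 22 processing and release genes (31.8%, 16.4 to 52.7%). The insulin receptor pathway had 7 of 17 (41.2%, 21.6 to 64.0%) and receptors 7 of 107 (6.5%), against 22.3%. The processing and insulin pathway intervals include that share. Windows with 1 transcript start made up 54.5% of the processing and release list, 29.4% of the insulin receptor pathway list and 63.6% of the receptor list, against 72.6% of all protein-coding genes, and the part of this in the counts was not tested.

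Sites were found at 3 of these 185 genes (1.62%), against 3.94% of all protein-coding genes, a share at which 185 genes would hold 7.29. The protein kinase C gene pkc-1, which promotes dense-core vesicle release, had an intronic site 221 bp upstream of the nearest start (chrV:12024153-12024608), with rank 463 in the pooled list, 446 in replicate 1 and 598 in replicate 2. Its summit also lay in the window of F10C2.10. The Rab2 gene unc-108, needed for dense-core vesicle maturation, had an intronic site 457 bp upstream of the nearest start (chrI:3824262-3824717), with pooled rank 599, replicate 1 rank 600 and replicate 2 rank 677. With only the most upstream start of each gene, neither pkc-1 nor unc-108 had a site in its window. The site at ftt-2, which encodes a 14-3-3 protein that binds DAF-16, was the strongest (chrX:11605727-11606241). It had rank 20 in the pooled list, 23 in replicate 1 and 18 in replicate 2. Its summit lay at -591 bp relative to the nearest start and also in the windows of 4 other genes. With a window of 500 bp upstream to 500 bp downstream, ftt-2 had no site. The FOXO gene daf-16 itself had a region of rank 2630, with ranks of 3356 in replicate 1 and 2857 in replicate 2, below the site threshold. No receptor had a site (0 of 107, upper bound 3.47%, against 3.94% of all protein-coding genes), and the highest receptor regions were those of npr-23 (rank 2135, in an intron of vps-4) and dmsr-2 (rank 2210). No gene of the peptidase families had a site either (0 of 31, upper bound 11.0%). The highest regions in that list were those of nep-1, a neprilysin (rank 9622), and acn-1 (rank 12295), counted by family and not by enzyme activity. Of the other peptide genes only daf-28, an insulin-like gene that prevents dauer arrest, had a pooled region (chrV:19815319-19815774), over its coding exon with rank 3467, and ranks of 8947 in replicate 1 and 3754 in replicate 2.

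**Figure D5:**
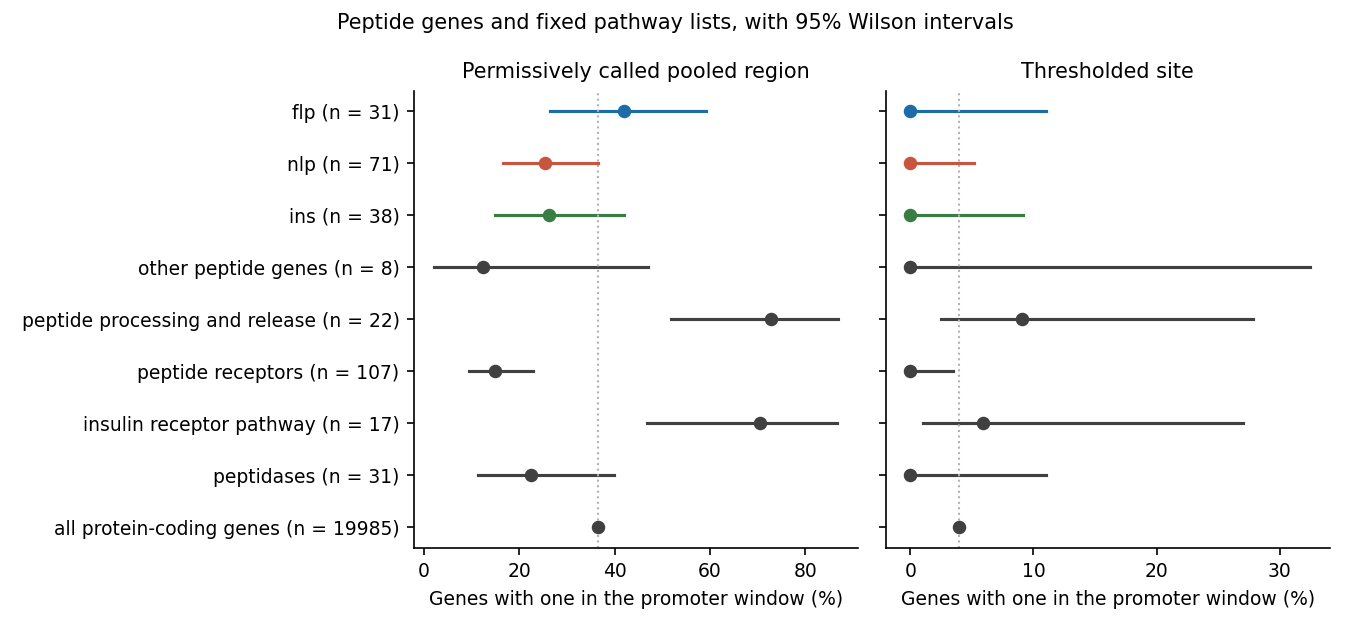
Share of genes with a pooled region (left, %) and with a site (right, %) in the promoter window for the 3 peptide gene families, the 5 pathway lists and all 19985 protein-coding genes; points are shares, bars 95% Wilson intervals, and the dotted lines the shares of all protein-coding genes (36.5 and 3.94%). The processing and release genes (72.7%) and the insulin receptor pathway (70.6%) lie right of the left dotted line with their whole intervals, and the receptors (15.0%) lie left of it. In replicate 1, not shown, the intervals of the processing and release genes and the insulin receptor pathway include the share of all protein-coding genes.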

How the data were processed

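Regions were taken as the authors deposited them, per the labels, as lists on ce11 with a start, end, summit and signal, for each replicate, for the pooled reads and for the pooled reads after a reproducibility threshold. The signal is the authors' peak caller's value. The sources used here do not give its scale, the aligner, the caller, the threshold level or the depth. The ce10 lists and the control libraries were not used here. Genes and transcript starts came from Ensembl release 115 of WBcel235. Where several summits lay in a window, the one of highest signal was kept. Shares have 95% Wilson intervals (statsmodels 0.14.6). With 1 group, no test was made, and counts over genes were set beside those of all protein-coding genes. Calculations used Python 3.11.15, numpy 2.4.6 and pandas 2.3.3, plots matplotlib 3.10.9, and the code was checked on planted summits. Named genes were the 5 members of highest pooled signal and the 3 nearest to a site in each family, those with paired replicate summits, and the leading genes of each pathway list. The families to describe and the pathway lists were chosen with earlier results of these data known, and 4 list entries had no match.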

Additional observations from a re-analysis of the deposited data

How the results depend on the processing

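Of 65 comparisons of the main values with an alternative, 54 moved by at most 1.5 times for counts or by less than the spread between replicates for medians. Some could not move, because with 0 members at a site a shorter window, fewer starts or fewer sites can only give 0. The spread was the standard deviation of the replicate medians, so medians with 1 replicate left out were compared with their own spread. Widening the window to 2000 bp upstream raised the members with a site to 1 (nlp-76), against 5.19% of all protein-coding genes, and the pathway genes with a site to 7; with only the most upstream start that last count was 1, against 3 as reported. Keeping the pooled regions of above-median signal left 21 members (15.0%), against 22.5% of all protein-coding genes. Of these members 5 were flp and 9 nlp. The same step left 25 pathway genes, against 52 as reported. Keeping the sites of above-median signal moved the members' median distance to 70.0 kb, and that of all protein-coding genes was not computed in this setting. Requiring replicate summits within 100 bp left 9 members in both replicates. Restricting to genes with 1 start and no other coding start, chosen after seeing the data, left 25 members of 99. With 1 replicate left out, members with a site stayed at 0, members with a region were 37 to 43 (flp 10 to 15, nlp 16 to 21, ins 7 to 11), pathway genes 45 to 62, the median rank position 52.0 to 58.4% and the median distance 31.6 to 36.6 kb. Members lay below all protein-coding genes in region share in these 8 settings of the full gene set, most narrowly with replicate 1 alone (30.7 against 33.9%). No paired analysis was possible because the series holds 1 group. Depth is unknown, so a region missing from a list may have been below detection.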

Other observations

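The summits of the peptide genes had no unusual base content. In the 101 bp around the highest pooled summit the median GC content was 42.6% for the 41 members, 43.6% for all protein-coding genes with a region and 50.5% for the sites. By family it was 41.6% for flp, 40.6% for nlp and 47.5% for ins genes. Over the whole promoter window the medians were 35.4% for members and 35.2% for all protein-coding genes. TGACCA, read on both strands as TGACCA or TGGTCA, was found within 50 bp of the summit at nlp-24 and nlp-56, 2 of 41 members (4.88%), against 3.70% for all protein-coding genes with a region and 3.76% for the sites. A tRNA, snoRNA or snRNA gene lay within 100 bp of the summit at flp-23 alone (2.44%), against 1.85% for all protein-coding genes with a region and 15.0% for the sites.

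Members with several pooled regions in the window were flp-6, flp-34, nlp-4, nlp-12, nlp-50, nlp-56, ins-29, ins-36 and ins-39. The member farthest from a site was nlp-69, at 452 kb, followed by ins-35 at 403 kb and flp-25 at 255 kb. The pooled region of flp-14 had rank 20276, with its summit at -607 bp relative to the start. The highest regions in the flp-14 window ranked 3564 in replicate 1 and 18096 in replicate 2. Their summits were at -619 bp and 17 bp downstream of the start, 636 bp apart, so the replicate 2 summit lay outside the pooled region. Within 2 kb of a site lay 5 of 17 insulin receptor pathway genes (29.4%), against 5.90% of all protein-coding genes. The contrast was smaller at other distances, with 1 gene (5.88%) within 1 kb, against 4.16%, and 7 (41.2%) within 20 kb, against 31.5%.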
